A study of Mus musculus with 6 samples.

Results

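The actin cytoskeleton and focal adhesion genes examined here were 41 named genes of actin assembly, actomyosin and cell-matrix attachment, among 21368 genes with a named probe and 55681 probes in all. Each gene was found through the symbol of its probe's RefSeq accession and was represented by its brightest probe, and every gene on the list had one. Values are log2(knockout/wild type) on each of 6 two-colour Agilent expression arrays of mouse epidermis at embryonic day 16 (E16). There were 2 arrays for each of 3 genotypes, which were Sox4 cKO, Sox11 cKO and the double knockout, dcKO. A cKO, or conditional knockout, lost the gene only where Krt14-Cre was active, and dcKO lost both Sox4 and Sox11.

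On every array a knockout was compared with a wild-type littermate, and all samples carried the strain label 129SvEx:C57BL/6. The dyes were swapped between replicates, with the knockout in Cy5 on replicate 1 and in Cy3 on replicate 2. Per the study's methods, Krt14-Cre mice of the FVB/N strain were crossed to floxed mice on a 129SvEx:C57BL/6 mixed background. The founding Sox4 fl/fl, Sox11 fl/fl mice also carried Sox12-/-, and whether the embryos on these arrays kept that allele, or the wild-type littermates any floxed allele, is not given in the sources used here. Krt14-Cre acts in keratinocytes, the main cells of the epidermis, so other cells in the peeled epidermal sheet kept both genes. The labels call the replicates biological, and how many embryos entered each is not given in the sources used here.

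Actin monomers join into filaments that push, pull and stiffen the cell. Monomer-binding proteins such as profilins and thymosins control the supply of actin, the Arp2/3 complex branches filaments, capping and severing proteins end them, and myosin II contracts them. At focal adhesions, talin, vinculin, zyxin and their partners tie filaments to integrins, and Ena/VASP proteins lengthen filaments at these sites and at the leading edge. In the epidermis this machinery serves adhesion to the basement membrane, tension between keratinocytes and the migration of keratinocytes during development and wound repair, and SOX4 and SOX11 are related transcription factors of embryonic cells. The question put to the arrays was which of these transcripts differed once Sox4, Sox11 or both were lost.

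In a channel, 38.9% to 43.6% of the spots exceeded background clearly by the scanner's flag, called well above background here, and 0 spots were saturated. Of the 41 genes, 39 were well above background in at least 1 channel of every array, and Pxn and Myl9 were not. The dimmer of the 2 Sox4 probes was lower on both Sox4 cKO arrays (−1.66 and −2.26 on the log2 scale) and both dcKO arrays (−1.55 and −1.61), where it was well above background in the wild type and not in the knockout, so these values are only bounds. The brighter one, well above background throughout, was at −0.14 and −0.71 in Sox4 cKO and −0.96 and −0.69 in dcKO. The Sox11 probes lay near background and could not check that genotype. All 9 keratinocyte markers examined were well above background in both channels of all 6 arrays. After loss of Sox11 their median log2 fold change was 0.26 (0.11 and 0.52 by array), with 7 higher on both arrays and 0 lower on both. It was 0.10 for dcKO (0.18 and 0.04 by array) and 0.05 after loss of Sox4 (0.155 and −0.05 by array). Their dcKO values ran from −0.34 (Krt15) to 0.64 (Krt1), with Krt10 at 0.63. Of the 9, 0 passed in any genotype. Markers of other cells also moved between knockout and wild type. The 12 dermal fibroblast markers had a median log2 fold change of −1.08 in dcKO, with 10 of 12 lower and medians of −1.10 and −1.08 on its 2 arrays. For Sox4 cKO that median was −0.58 (−1.75 and 0.61 by array), and for Sox11 cKO 0.13 (0.60 and −0.37). The 6 periderm and simple-epithelium keratins had a median of −1.17 in dcKO, 0.48 after loss of Sox4 and −1.15 after loss of Sox11, and 3 of them passed the test in dcKO. In Sox4 cKO 5 of the 6 were higher and 1 was lower, at −0.94. All 10 skeletal muscle markers were lower in Sox4 cKO, with a median of −0.85 (−1.87 and 0.08 by array) and 6 at an unadjusted p under 0.05. All 10 were lower in dcKO too, with a median of −0.37 (−0.20 and −0.77 by array), and 8 of the 10 were higher in Sox11 cKO, with a median of 0.11. The part of these shifts in the values of the actin genes was not tested, and in bulk tissue fewer cells of a type and less RNA per cell cannot be told apart.

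Most of the actin and adhesion transcripts lay close to the wild-type level in all 3 genotypes. In dcKO, 35 of the 41 had a fitted log2 fold change within 0.4 of zero, the median was −0.03 (−0.0001 over all probes and −0.01 over one probe per named gene), and 17 were higher and 24 lower. The members were not closer to zero than the rest of the array. Beyond 0.5 either way in dcKO were 5 of the 41 (12.2%). That share was 3.2% of all probes and 8.31% of named genes well above background on all 6 arrays. On both dcKO arrays 16 genes (39%) were lower and 7 (17.1%) higher. Of all probes 25.2% were lower and 24.6% higher. Of named genes well above background on all 6 arrays 32.5% were lower and 28.3% higher. The number within 0.4 was 39 in Sox4 cKO and 40 in Sox11 cKO, with medians of −0.04 and −0.02. Beyond 0.5 were 4.88% and 2.44% of the members, against 1.15% and 1.35% of all probes. Of named genes well above background on all 6 arrays 2.25% and 2.89% were. The 6 genes beyond 0.4 in dcKO were Pfn2, Evl, Myl9, Tmsb4x and Ptk2, which were lower, and Fhl2, which was higher. Of these, Pfn2, Evl and Tmsb4x passed limma's test at an adjusted p under 0.05 over all probes, and each was lower on both arrays. These 3 were 7.32% of the 41 genes, and all fell. Over all probes 0.309% passed in that direction, and among named genes well above background on all 6 arrays 1.12% did. The 41 genes were chosen with earlier results of these data known, so no test was run over the list. No member reached the further threshold of the study's methods, an absolute log2 fold change over 1.5, which 0.207% of all probes met in dcKO. With Feature Extraction's own log ratio 0 probes on the array passed in dcKO, and Pfn2, Evl and Tmsb4x were at −1.35, −1.09 and −0.67.

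Of the 41 genes limma passed 0 in either single knockout, against 0.00539% of all probes after loss of Sox4 and 0% after loss of Sox11. At an unadjusted p under 0.05 it took 4 in Sox4 cKO (6.18% of all probes) and 1 in Sox11 cKO (7.05% of all probes). The width of the intervals bears on that. The median half-width of a member's 95% interval was 0.30 on the log2 scale, and 36 of 41 intervals in dcKO, and 39 in each single knockout, lay within a 2-fold change either way.

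**Figure D1:**
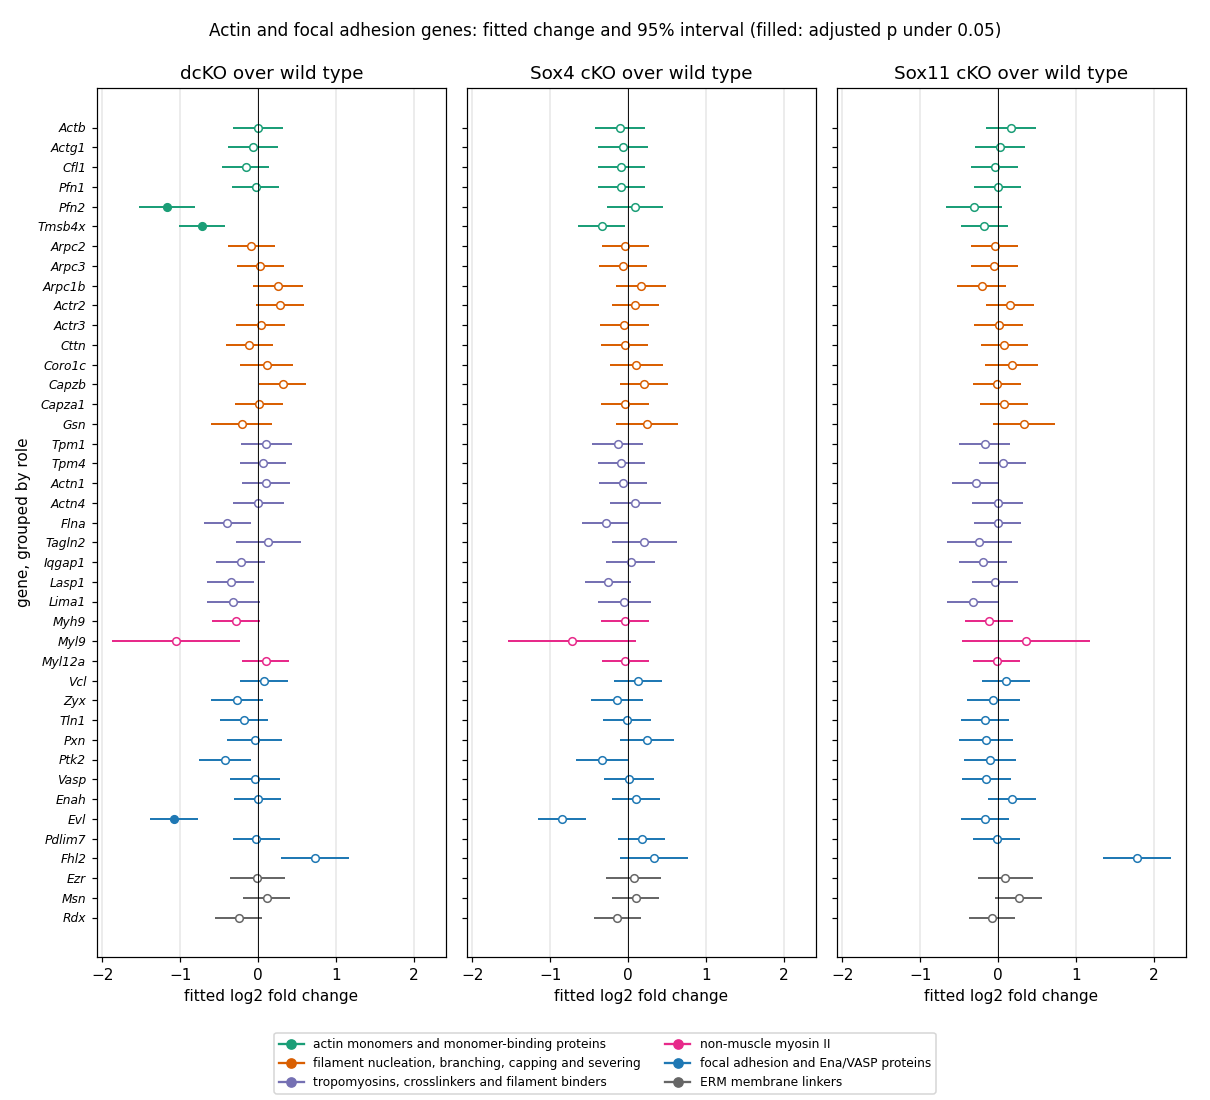
Fitted log2 fold change of knockout over wild type (x axis) for the 41 genes (y axis, coloured by role) in dcKO, Sox4 cKO and Sox11 cKO, with limma's 95% interval as a bar and filled points for an adjusted p under 0.05. Pfn2, Evl and Tmsb4x are the only filled points, all in dcKO and left of zero, and Fhl2 lies farthest right in Sox11 cKO at 1.78.

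Among the 6 actins and monomer-binding proteins, 2 passed in dcKO. Pfn2 encodes profilin 2, which loads actin monomers with ATP and delivers them to growing filament ends. Its log2 ratio was −1.51 and −0.83 on the dcKO arrays, 0.03 and 0.14 on the Sox4 cKO arrays, and −0.31 and −0.31 on the Sox11 cKO arrays. Both dcKO values therefore lay below the other 4. The fitted change in dcKO was −1.17 (95% interval −1.52 to −0.82), a 2.25-fold lower level (limma, adjusted p = 0.0112). The fitted values were 0.09 in Sox4 cKO (adjusted p = 0.962) and −0.31 in Sox11 cKO (adjusted p = 0.728). The difference between dcKO and Sox4 cKO was −1.26 (interval −1.75 to −0.76, limma adjusted p = 0.122), the lowest adjusted p of any member for that difference. From Sox11 cKO dcKO differed by −0.86 (adjusted p = 0.425). Neither difference passed after adjustment. The difference from Sox4 cKO passed with an offset of 50 (−1.12, adjusted p = 0.00776), without background subtraction (−1.18, adjusted p = 0.0142) and without replicate 2 of dcKO (−1.57, adjusted p = 0.0326). Without replicate 1 of dcKO the Pfn2 value was −0.86 (adjusted p = 0.277), and with any other array left out it still passed.

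Tmsb4x encodes thymosin beta 4, which binds and sequesters actin monomers, and lies on the X chromosome. It was −0.72 on both dcKO arrays, −0.31 and −0.36 in Sox4 cKO, and −0.12 and −0.23 on the Sox11 cKO arrays. All 6 values were below zero, and the dcKO pair was lowest. The fitted change in dcKO was −0.72 (interval −1.01 to −0.43), or 1.65-fold lower (limma, adjusted p = 0.0439). This call was the least stable of the set. Without the replicate block the adjusted p was 0.0908, and it was above the threshold whichever of the 6 arrays was left out, with values between −0.76 and −0.68. On each array both channels carried the same sex by Xist and Ddx3y. Both dcKO arrays were male, and each single knockout had a male replicate 1 and a female replicate 2. Sex thus differed between dcKO and the single knockouts on replicate 2, and its part in the differences between genotypes was not tested.

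The 250 bases upstream of the RefSeq start of each of these 2 genes (GRCm38.p6) are shown because SOX proteins bind short words close to ACAAAG or ACAATG. Neither exact word was found on either strand in these windows, so no letters are in capitals. Close variants of these words were not searched for. The Pfn2 window is chr3:57847758-57848007 and the Tmsb4x window chrX:167209219-167209468, both on the minus strand.
Pfn2: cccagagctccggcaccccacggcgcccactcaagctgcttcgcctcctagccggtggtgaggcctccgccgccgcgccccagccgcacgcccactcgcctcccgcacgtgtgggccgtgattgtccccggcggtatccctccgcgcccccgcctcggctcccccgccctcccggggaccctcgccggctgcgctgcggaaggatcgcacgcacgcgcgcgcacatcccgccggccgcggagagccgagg
Tmsb4x: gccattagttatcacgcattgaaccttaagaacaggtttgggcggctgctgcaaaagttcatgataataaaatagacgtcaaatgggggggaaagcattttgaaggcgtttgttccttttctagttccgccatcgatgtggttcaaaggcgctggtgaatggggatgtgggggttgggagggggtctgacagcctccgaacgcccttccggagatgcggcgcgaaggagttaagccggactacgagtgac

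The other 4 genes of this group did not pass. Actb and Actg1 encode the cytoplasmic beta and gamma actins. Actb was 0.42 and −0.42 in dcKO, 0.12 and −0.32 in Sox4 cKO, and 0.44 and −0.10 on the Sox11 cKO arrays. In each genotype replicate 1, with the knockout in Cy5, was above replicate 2, and the dye coefficient of the probe was 0.30 (log2 Cy5 over Cy3). With both orientations the fitted dcKO value was 0.00 (interval −0.31 to 0.31). Actg1 was 0.03 and −0.16 in dcKO, 0.16 and −0.29 in Sox4 cKO, and 0.04 and 0.01 on the Sox11 cKO arrays, with a fitted dcKO value of −0.06 (interval −0.37 to 0.24). Its 5 probes were fitted between −0.06 and 0.11 in dcKO. The actin-severing cofilin Cfl1 and the widely expressed profilin Pfn1 were at −0.16 (adjusted p = 0.745) and −0.03 (adjusted p = 0.965) in dcKO.

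**Figure D2:**
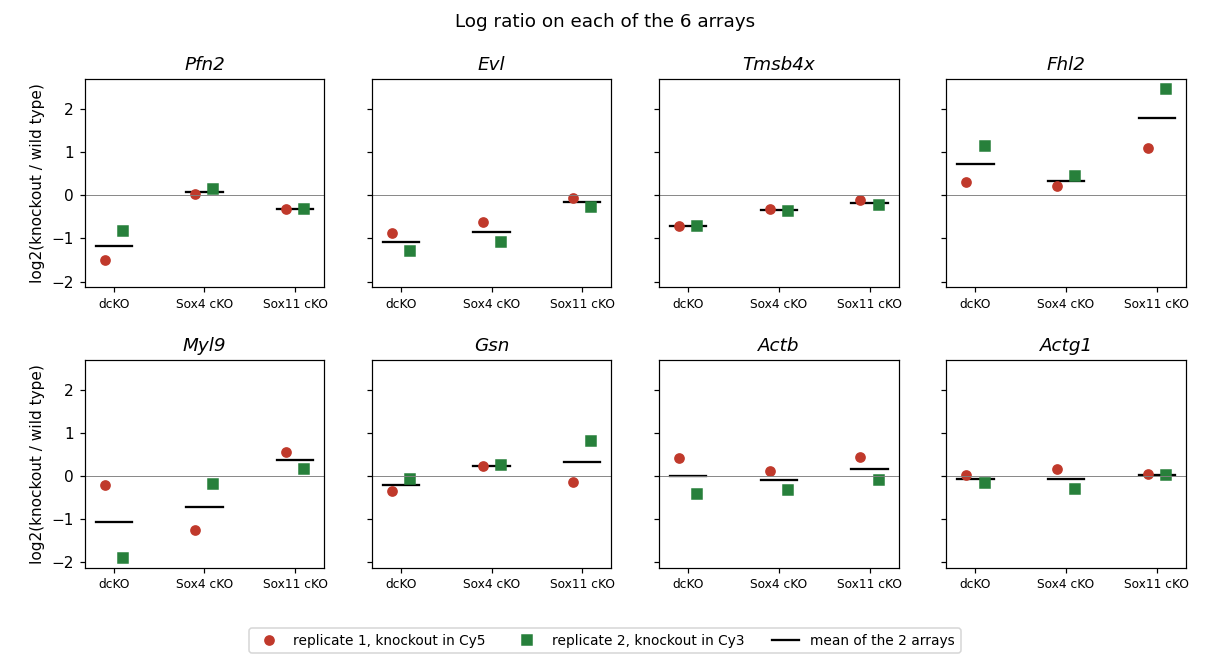
Log2 ratio of knockout over wild type (y axis) on each of the 6 arrays for 8 genes, by genotype (x axis), with red circles for replicate 1 (knockout in Cy5), green squares for replicate 2 (knockout in Cy3) and a bar for the mean of the 2 arrays. Pfn2, Evl and Tmsb4x lie below zero on both dcKO arrays, Actb lies on opposite sides of zero at 0.42 and −0.42 in dcKO, and Fhl2 reaches 2.47 in Sox11 cKO.

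The 10 genes of filament nucleation, branching, capping and severing had 0 calls in limma in any genotype. In dcKO 1 of the 10 had an unadjusted p under 0.05 (9.89% of all probes did), and they ran from −0.21 (Gsn) to 0.31 (Capzb), with a median of 0.03, 7 higher and 3 lower. Capzb, the beta subunit of the capping protein that closes fast-growing filament ends, was 0.30 and 0.33 on the dcKO arrays, 0.16 and 0.24 in Sox4 cKO, and 0.04 and −0.07 on the Sox11 cKO arrays (dcKO fit 0.31, interval 0.02 to 0.60, adjusted p = 0.469). Actr2, which encodes the ARP2 subunit of the branching complex, was 0.17 and 0.40 in dcKO, −0.05 and 0.24 in Sox4 cKO, and 0.12 and 0.18 on the Sox11 cKO arrays (dcKO fit 0.28, adjusted p = 0.52). The 2 dcKO arrays were on the same side of zero for both genes, at a size no greater than the intervals of many other members. The remaining Arp2/3 subunits Arpc2, Arpc3, Arpc1b and Actr3 were between −0.09 and 0.25 in dcKO. The capping subunit Capza1 had 4 probes, and the brightest was at 0.01 while another was at 0.50 (adjusted p = 0.179).

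Gsn encodes gelsolin, which severs and caps filaments in response to calcium. It was −0.35 and −0.07 in dcKO, 0.22 and 0.26 in Sox4 cKO, and −0.14 and 0.80 on the Sox11 cKO arrays. The single knockouts had fitted values of 0.24 and 0.33, above the −0.21 of dcKO, and none of the 3 passed (adjusted p = 0.865, 0.737 and 0.745). The high Sox11 cKO array was the one with a low wild-type channel for this gene, and without it the Sox11 cKO value was −0.06.

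The 9 tropomyosins, crosslinkers and filament binders also had 0 calls. In dcKO 2 of the 9, both lower, had an unadjusted p under 0.05. Of all probes 9.89% did, and of named genes well above background on all 6 arrays 1911 of 11163. The 9 genes ran from −0.40 to 0.13 in dcKO, with a median of 0.00. The lowest was the X-linked filamin gene Flna, which encodes a crosslinker of filaments into networks, at −0.47 and −0.32 in dcKO (fit −0.40, adjusted p = 0.327) and −0.34 and −0.24 in Sox4 cKO. Lasp1, a LIM and SH3 protein of adhesions and the leading edge, was −0.65 and −0.06 (fit −0.35, adjusted p = 0.388). Both passed in dcKO when the normexp background correction used an offset of 50. Lima1, or EPLIN, which stabilises filaments, was −0.50 and −0.14 in dcKO, −0.45 and 0.35 in Sox4 cKO, and −0.45 and −0.19 on the Sox11 cKO arrays. Its Sox11 cKO fit, −0.32 (adjusted p = 0.71), was the lowest member value in that genotype and was below zero on both arrays.

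Actn1, the crosslinker alpha-actinin 1, was −0.23 and −0.34 in Sox11 cKO (fit −0.29, adjusted p = 0.714), 0.27 and −0.07 in dcKO and 0.02 and −0.16 in Sox4 cKO. Tagln2, a transgelin that binds along filaments, was 0.02 and 0.39 in Sox4 cKO (fit 0.21, adjusted p = 0.896), −0.82 and 0.33 in Sox11 cKO, and 0.04 and 0.21 in dcKO. Its Sox11 cKO arrays were on opposite sides of zero.

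Tpm1, a tropomyosin that coats filaments, gave different values by probe, and whether its transcripts differ was not tested. The brightest probe, which stands for the gene, was at 0.10 in dcKO, so Tpm1 is counted as higher. The 4 other probes, designed on accessions of other Tpm1 transcripts, were at −0.44, −0.63, −0.46 and −0.86, and none passed (lowest adjusted p = 0.082). A pair of these, on the same accession, was at −1.78 and −1.74 on replicate 1 of Sox4 cKO and at 0.01 and −0.15 on replicate 2. In dcKO the same pair was at −0.26 and −0.13 on replicate 1 and at −0.997 and −0.796 on replicate 2. The skeletal muscle markers had medians of −1.87 and 0.08 on the Sox4 cKO arrays and of −0.20 and −0.77 on the dcKO arrays. The fibroblast markers were at −1.75 and 0.61, and at −1.10 and −1.08. Their part in the Tpm1 values was not tested.

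Of the 3 non-muscle myosin II genes, 0 passed in limma, and 1, Myl9, had an unadjusted p under 0.05 in dcKO. Myl9 encodes a regulatory light chain of myosin II that is also abundant in smooth muscle. It was −0.21 and −1.91 in dcKO, −1.26 and −0.19 in Sox4 cKO, and 0.55 and 0.16 on the Sox11 cKO arrays, so the 2 arrays of dcKO and of Sox4 cKO were far apart. The dcKO fit was −1.06 with an interval of −1.87 to −0.25 (limma, adjusted p = 0.355), the widest among the members. Replicate 2 alone decided that value. Without replicate 1 of dcKO it was −2.07 (adjusted p = 0.0101), and without replicate 2 it was −0.04. In Sox4 cKO the probe was well above background on neither array in the knockout and on 1 in the wild type, and the fitted value was −0.73 (interval −1.53 to 0.08, adjusted p = 0.813). The 8 smooth muscle and pericyte markers, of which Myh11, Cnn1 and Des were not well above background on any array, had a median of −0.26 in dcKO (−0.14 and −0.09 on its 2 arrays). Acta2, the smooth muscle actin gene among them, was −0.12 and −0.92 in dcKO and −1.07 and −0.03 in Sox4 cKO, and was not well above background in any knockout channel. The skeletal muscle markers were at −0.20 and −0.77 by array in dcKO and at −1.87 and 0.08 in Sox4 cKO. The part of muscle cells in the Myl9 values was not tested. The myosin heavy chain Myh9 was at −0.29 in dcKO (adjusted p = 0.515) and the light chain Myl12a at 0.09 (adjusted p = 0.871).

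Among the 10 focal adhesion and Ena/VASP genes, 1 passed in dcKO. Evl belongs to the Ena/VASP family, whose proteins extend filaments at adhesions and the leading edge. It was −0.87 and −1.29 in dcKO, −0.62 and −1.07 in Sox4 cKO, and −0.07 and −0.26 on the Sox11 cKO arrays. The dcKO and Sox4 cKO values overlapped, and all 4 lay below both Sox11 cKO values. The fitted dcKO change was −1.08 (interval −1.38 to −0.79), or 2.12-fold lower (limma, adjusted p = 0.00779). In Sox4 cKO the change was −0.85 (interval −1.14 to −0.55) and did not pass (adjusted p = 0.299), though it passed with an offset of 50 (−0.82, adjusted p = 0.00838). Over the 14 alternatives its adjusted p in Sox4 cKO was between 0.00838 and 0.937. The difference between dcKO and Sox4 cKO was −0.24 with an interval of −0.65 to 0.18 (adjusted p = 0.909), and dcKO departed by −0.07 from the 2 single-knockout values added together (interval −0.58 to 0.44). Without replicate 1 of dcKO the dcKO value was −1.13 (adjusted p = 0.0896) and without replicate 2 it was −1.03 (adjusted p = 0.107). The difference between dcKO and Sox11 cKO was −0.91 (interval −1.33 to −0.50, adjusted p = 0.204), and it passed with an offset of 50 (adjusted p = 0.00784) and without background subtraction (adjusted p = 0.0212). The fibroblast markers had medians of −1.10 and −1.08 on the dcKO arrays, and of −1.75 and 0.61 on the Sox4 cKO arrays. Their part in the Evl values was not tested.

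The other Ena/VASP members did not pass. Enah was at −0.01 in dcKO (interval −0.30 to 0.28) and Vasp at −0.04 (interval −0.34 to 0.27).

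RefSeq gives Evl 2 start sites in this table. The upstream windows of both are shown because they hold exact ACAAAG or ACAATG words, which the Pfn2 and Tmsb4x windows lack. Capitals mark ACAAAG or ACAATG on either strand. The windows are chr12:108554470-108554719 and chr12:108605516-108605765, both on the plus strand. The first holds ACAAAG beginning 105 bases before the start, and the second ACAAAG at 242 and ACAATG at 195 bases.
Evl start 1: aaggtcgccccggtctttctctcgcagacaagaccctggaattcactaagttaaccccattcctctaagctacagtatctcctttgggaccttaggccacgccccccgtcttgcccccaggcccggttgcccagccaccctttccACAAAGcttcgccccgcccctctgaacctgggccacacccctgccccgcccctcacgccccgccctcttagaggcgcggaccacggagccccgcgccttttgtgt
Evl start 2: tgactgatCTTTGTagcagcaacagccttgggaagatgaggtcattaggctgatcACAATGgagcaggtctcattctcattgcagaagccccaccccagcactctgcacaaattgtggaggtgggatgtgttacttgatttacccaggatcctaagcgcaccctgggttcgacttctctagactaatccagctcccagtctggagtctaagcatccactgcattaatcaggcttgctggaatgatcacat

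Fhl2 was the member with the highest value in all 3 genotypes. It encodes a LIM-domain protein found at adhesions and in the nucleus. Its log2 ratio was 1.09 and 2.47 in Sox11 cKO, 0.31 and 1.15 in dcKO, and 0.22 and 0.45 in Sox4 cKO. All 6 values were above zero, and replicate 2, with the knockout in Cy3, was the higher array in each genotype (dye coefficient −0.41). In Sox11 cKO the fit was 1.78 (interval 1.35 to 2.21), with an adjusted p of 0.0951 in limma, which missed the threshold although no probe on the array had a lower one in that genotype. It passed with an offset of 50 (1.47, adjusted p = 0.00428), without background subtraction (1.61, adjusted p = 0.00609), and in all leave-one-array-out fits other than the one without replicate 2 of Sox11 cKO. In dcKO the fit was 0.73 (interval 0.30 to 1.15, adjusted p = 0.185) and in Sox4 cKO 0.33 (adjusted p = 0.83). From Sox11 cKO dcKO differed by −1.05 (interval −1.65 to −0.45, adjusted p = 0.425).

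The channel levels bear on the size of that ratio. On replicate 2 of Sox11 cKO the normalized log2 level of Fhl2 in the wild type was 5.55, whereas in the wild type of the other 5 arrays it was between 8.48 and 10.3. The knockout level on the same array was 8.02, below the wild-type level of all the other arrays. On replicate 1 the wild type was at 8.48 and the knockout at 9.57.

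**Figure D3:**
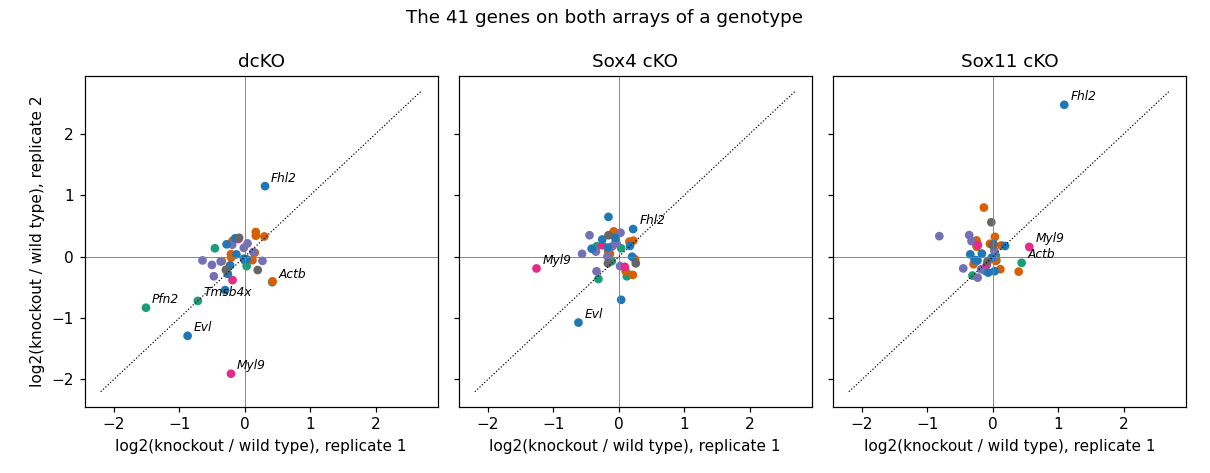
Log2 ratio of knockout over wild type on replicate 1 (x axis) and replicate 2 (y axis) of each genotype for the 41 genes, coloured by role as in the plot of fitted changes, with a dotted line where both arrays are equal. Pfn2, Evl and Tmsb4x lie in the lower left in dcKO, Evl also in Sox4 cKO, Fhl2 in the upper right in Sox11 cKO at 1.09 and 2.47, and Myl9 is low on 1 array only in dcKO and Sox4 cKO.

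The other adhesion genes stayed below the threshold in every genotype. Ptk2, the focal adhesion kinase, was −0.30 and −0.55 in dcKO (fit −0.42, interval −0.75 to −0.10, adjusted p = 0.356), 0.03 and −0.70 in Sox4 cKO, and 0.03 and −0.24 on the Sox11 cKO arrays. Vinculin (Vcl), zyxin (Zyx) and talin (Tln1) were at 0.07, −0.27 and −0.18 in dcKO, with intervals that all included zero. The PDZ and LIM protein gene Pdlim7 was at −0.02. The paxillin probe, Pxn, did not rise well above background in any channel of the dcKO and Sox11 cKO arrays, so no fold is given. The 3 ERM genes, whose proteins tie filaments to the plasma membrane, were at −0.01 (Ezr), 0.11 (Msn) and −0.25 (Rdx) in dcKO, and none passed (lowest adjusted p = 0.567).

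The upstream windows were read for 37 of the 41 genes. ACAAAG or ACAATG on either strand was in 4 of them (Enah, Evl, Lima1 and Rdx), or 10.8%, against 28.2% of 27025 genes. The CArG box, the element bound by serum response factor (SRF), was in 5 (Actg1, Fhl2, Lima1, Myl9 and Vcl), or 13.5%, against 1.62% of genes. Many actin genes are known SRF targets. These counts describe letters in 250 bases, and none of the 5 genes with a CArG box passed in any genotype. The windows of Actg1 (chr11:120348496-120348745, minus strand) and of the second Fhl2 start site (chr1:43163962-43164211, minus strand) are shown as the gene at the wild-type level and the gene with the highest value of those 5. Capitals mark the CArG box, which begins 90 bases before the start of Actg1 and 31 before that of Fhl2.
Actg1: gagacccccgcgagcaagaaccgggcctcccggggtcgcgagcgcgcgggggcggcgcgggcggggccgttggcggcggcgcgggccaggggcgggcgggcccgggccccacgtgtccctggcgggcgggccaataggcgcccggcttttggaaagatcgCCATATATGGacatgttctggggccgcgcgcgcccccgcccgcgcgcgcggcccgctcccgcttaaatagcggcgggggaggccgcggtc
Fhl2 start 2: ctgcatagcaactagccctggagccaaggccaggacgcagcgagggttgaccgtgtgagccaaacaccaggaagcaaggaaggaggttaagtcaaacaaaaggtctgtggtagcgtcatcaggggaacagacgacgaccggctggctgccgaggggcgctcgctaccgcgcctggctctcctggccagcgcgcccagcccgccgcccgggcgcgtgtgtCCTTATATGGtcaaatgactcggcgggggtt

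A wider list of 89 genes of the same machinery, outside the 41, was also read, and all had a probe. It was chosen with earlier results of these data known, so no test was run over it. In dcKO 5 passed lower and 0 passed higher, against 0.309% and 0.524% of all probes. Among named genes well above background on all 6 arrays 1.12% passed lower. Of 37 other actin and filament-binding genes 2 passed, of 41 other adhesion complex genes 3, and of 11 genes of SRF, its cofactors and targets 0. An unadjusted p under 0.05 was met by 9.89% of all probes, and by 1911 of 11163 named genes well above background on all 6 arrays. It was met by 8 of 37 actin and filament-binding genes (5 lower), 11 of 41 adhesion complex genes (10 lower) and 1 of 11 in the SRF list. The medians of these lists were 0.01, −0.12 and −0.06, against −0.0001 over all probes and −0.02 over those named genes. On both dcKO arrays 46.3% of the adhesion complex genes were lower, and 29.7% and 45.5% of the actin and SRF lists. Of all probes 25.2% were, and of the named genes well above background on all 6 arrays 32.5%.

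Tmsb10, thymosin beta 10, a relative of Tmsb4x, was −1.19 and −1.39 in dcKO (fit −1.29, adjusted p = 0.00367), −1.11 and −1.15 in Sox4 cKO (adjusted p = 0.136), and −0.02 and −0.42 on the Sox11 cKO arrays. The Sox4 cKO and dcKO arrays were close, while the Sox11 cKO arrays were nearer zero. Fscn1, which bundles filaments in protrusions, was −0.91 and −0.85 in dcKO (fit −0.88, adjusted p = 0.0191) and −0.92 and −0.60 in Sox4 cKO (adjusted p = 0.346).

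Tes encodes testin, a LIM protein of adhesions and filaments that binds zyxin. It was −1.64 and −1.60 in dcKO, −1.38 and −1.68 in Sox4 cKO, and 0.12 and 0.14 on the Sox11 cKO arrays. It fell in dcKO by 1.62 (limma, adjusted p = 0.00101) and in Sox4 cKO by 1.53 (adjusted p = 0.0288), beyond the fold threshold of 1.5 in both, and was the only gene of the 41 or the wider list to pass in a single knockout. Fblim1, migfilin, which binds filamin, was at −1.09 (adjusted p = 0.0109), and Tns1, tensin 1, which links integrins to filaments, at −0.78 (adjusted p = 0.0349) in dcKO.

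The highest values of the 3 lists in dcKO were Twf1, twinfilin 1, at 0.78 (adjusted p = 0.082), Sorbs3, vinexin, at 0.66 (adjusted p = 0.068), and Fos at 0.22 (adjusted p = 0.767). The lowest of the SRF list was the cofactor gene Mrtfb at −0.35 (adjusted p = 0.412).

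**Figure D4:**
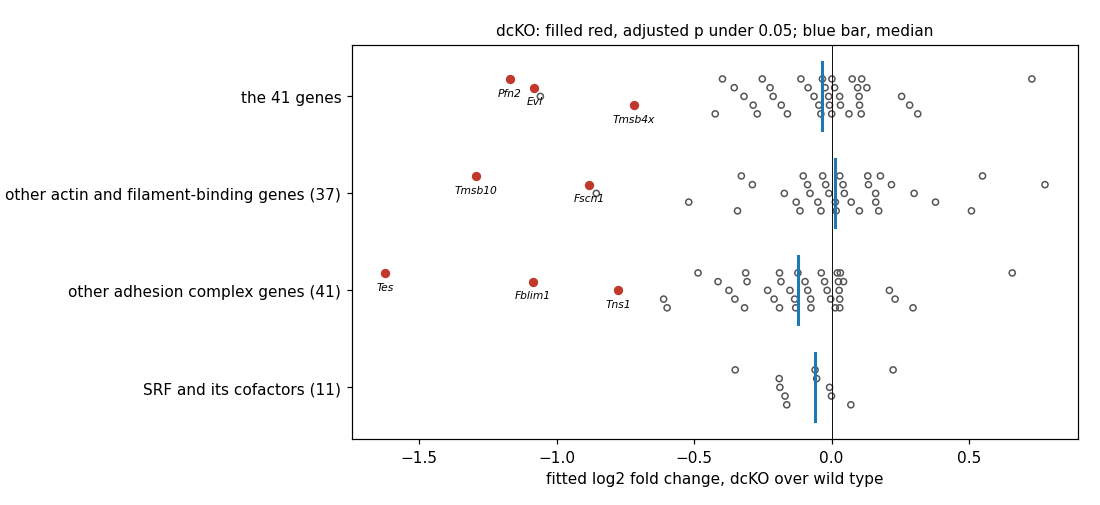
Fitted log2 fold change in dcKO (x axis) of the 41 genes and of the 3 wider lists (y axis, number of genes in brackets), with filled red points for an adjusted p under 0.05 and a blue bar at each median. All 8 filled points lie left of zero, and the medians lie between −0.12 and 0.01.

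Tests of the differences between genotypes passed 0 of the 41 genes in limma. For dcKO minus Sox4 cKO the lowest adjusted p was 0.122 (0.147% of all probes passed) and 1 member had an unadjusted p under 0.05 (6.12% of probes did). For dcKO minus Sox11 cKO these were 0.204 (0.163%) and 7 members (7.21%). For dcKO minus both single-knockout values added together they were 0.544 (0.088%) and 3 members (6.38%). For Sox4 cKO minus Sox11 cKO they were 0.929 (0.0018%) and 2 members (5.28%).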

How the data were processed

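RNA of epidermis from E16 embryos was hybridised to 6 two-colour arrays. Per the labels and the study's methods, the authors extracted images with Agilent Feature Extraction 11.0.1.1, and the deposited scanner files hold unnormalized intensity values per spot and channel, quality flags, and a log10 ratio made by Feature Extraction. The authors' deposited series table holds log2 ratios of knockout over wild type, made in limma by normexp background correction (offset 16) and loess. Values recomputed here from the scanner files had a slope of 1 against that table on each array before any dye correction, and so the ComBat step of the methods was not in it.

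The series table was fitted in R 4.3.3 with limma 3.58.1 over 55681 probes, with 1 coefficient per genotype and a dye coefficient in place of ComBat, which leaves 2 residual and 6.65 prior degrees of freedom. Fold changes are thus means of the 2 arrays. P-values are two-sided from limma, adjusted by Benjamini-Hochberg over all probes, with 0.05 as the threshold. Replicate number and dye orientation coincide, so the dye coefficient was also a replicate block. In both single knockouts the sex of the embryos coincided with them too. Deviations of same-numbered arrays from their genotype means correlated across probes at 0.306, 0.328 and 0.259. All arrays lay on 1 slide from 1 scan, and the number of arrays limits the precision. Channel levels were read after loess and Aquantile normalization. The fit was also run on simulated arrays with independent errors, which cannot show how it does where arrays share sex or replicate effects.

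Probes were named through RefSeq symbols of GRCm38.p6, which gave a name to 28331 probes. The array design used another assembly, so its positions were not used. Values on all arrays are given for members that passed in any genotype or contrast, for the 3 highest and 3 lowest in each genotype, and for Actb and Actg1. Of the wider lists, genes that passed and the highest and lowest in dcKO are named. Flna, Lasp1, Tpm1 and Capza1 were named in detail after their values were seen. Members and lists were chosen with earlier results of these data known. Alternatives covered recomputation, offset, background, normalization, dim probes, probe averaging, the replicate block and leaving out each array. The 250 bases before RefSeq start sites were searched on both strands for ACAAAG and for ACAATG, and for the CArG box, with chromosome 18 left out. A further list of genes is not reported here.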

Additional observations from a re-analysis of the deposited data

Results flagged for a closer look

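The wild-type level of Gsn was marked because 1 of its 6 arrays lay far from the rest. The gap between the lowest value, 11.7 (log2) on replicate 2 of Sox11 cKO, and the nearest other array was 0.637 of the whole range up to 12.3, just above the critical value for 6 arrays. Chance alone marks about 1 in 20 such groups. The knockout level on the same array was 12.5, within 0.1 of the highest Gsn level on the arrays, 12.6. The wild-type level of Fhl2 was also lowest on that array, with a gap of 0.617 of its range, just under that value. The keratinocyte markers had a median log2 ratio of 0.52 on the same array. Whether a property of its wild-type sample moved Gsn, Fhl2 or these markers was not tested.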

How the results depend on the processing

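Under 8 other processing settings and 6 fits that each left out 1 array, directions held except where given here. In dcKO 3 members passed, against 6 with an offset of 50 (Flna, Lasp1 and Fhl2 added), 4 without background subtraction, 2 with median centring in place of loess, 2 without the replicate block (Pfn2 and Evl; Tmsb4x −0.72, adjusted p = 0.0908 in limma), and 0 with Feature Extraction's log ratio, where no probe on the array passed. Pfn2 and Evl passed in 7 of the 8 other settings and Tmsb4x in 5. Leaving out 1 array gave 1 to 2 calls in dcKO, and Tmsb4x was called in 0 of the 6. With an offset of 50, and without background subtraction, 1 member passed in Sox4 cKO (Evl), 1 in Sox11 cKO (Fhl2), 1 for dcKO minus Sox4 cKO (Pfn2) and 1 for dcKO minus Sox11 cKO (Evl). Leaving out 1 array gave 0 to 1 calls in Sox11 cKO and for both of these differences (Pfn2 without replicate 2 of dcKO, and Myl9 without replicate 1). Median centring moved the median of the members to 0.15 in Sox4 cKO and −0.13 in Sox11 cKO, while the median of all probes stayed within 0.03 of zero, and leaving out 1 array gave medians between −0.115 and −0.0252 in dcKO. The Actg1 value in dcKO turned to 0.0309 with the mean of all its probes. Over the fits without 1 array, values that changed sign ran from −0.17 to 0.17 (Actb, dcKO), −0.0344 to 0.205 (Pfn2, Sox4 cKO), −0.0447 to 0.525 (Gsn, Sox4 cKO), −0.0606 to 0.72 (Gsn, Sox11 cKO) and −0.11 to 0.77 (Fhl2, Sox4 cKO), and none of these results passed. The replicate block changed no other call. The causes were not tested. With 2 arrays a genotype, changes smaller than the interval half-width of about 0.30 (log2) mostly missed even an unadjusted p under 0.05. Passing after adjustment took larger changes. In the main fit the smallest member change that passed was Tmsb4x in dcKO at −0.72 (limma, adjusted p = 0.0439). Evl at −0.85 in Sox4 cKO (adjusted p = 0.299) and Fhl2 at 1.78 in Sox11 cKO (adjusted p = 0.0951) did not pass. A member that did not pass may thus have changed by more than 0.30.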
